A study of Mus musculus with 25 samples.

Results

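The insulin receptor, the related IGF1 receptor and the parts of the pathway directly behind them were followed in the hypothalamus of young adult mice whose mothers had eaten a hypercaloric diet or regular chow. The set holds 10 genes, taken by symbol: Insr and Igf1r for the receptors, Irs1, Irs2 and Irs4 for the receptor substrates, Pik3r1 and Pik3ca for the phosphoinositide 3-kinase (PI3K), Akt1 and Akt2 for the kinases behind it, and Foxo1 for the transcription factor that AKT holds in check. All 10 were found among the 24421 genes of each table. Insulin and IGF1 bind receptor tyrosine kinases, which phosphorylate the substrates. These then recruit PI3K, whose lipid product activates AKT, and AKT keeps FOXO proteins out of the nucleus. In the hypothalamus this cascade lets feeding circuits read circulating insulin, and IRS4 is a substrate known for its prominence there.

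The 25 samples were hypothalami of wild-type C57BL/6J mice of both sexes, taken at 3 months of age and frozen at once, and sequenced as stranded mRNA libraries. Dams ate a hypercaloric diet (HCD, 52% fat and rich in sucrose) or a regular diet (RD), starting 1 month before mating and continuing through pregnancy and nursing, and their pups were weaned onto one or the other. The groups are written with the dam's diet first and the offspring's diet second, and mice are called HCD-fed or RD-fed by their own diet after weaning. Among HCD-fed mice they are HCD-HCD Male, set against RD-HCD Male, and HCD-HCD Female, set against RD-HCD Female. Among RD-fed mice they are HCD-RD Male, set against RD-RD Male, and HCD-RD Female, set against RD-RD Female. The labels list 4 samples of RD-RD Male and 3 of each other group. The labels give no litters, so p-values measure only the spread between these samples, which may be technical. All values below come from the authors' 4 deposited tables, 1 per comparison, which give each gene's mean normalized count over both groups, a log2 fold change with its standard error (SE), and a p-value. No value of a single sample or of a single group is printed, because no library column could be tied to a label. For the same reason the effect of the offspring's own diet was not analysed here.

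A positive fold change was read as higher in the offspring of HCD dams. The labels do not state the numerator of the fold changes, so this reading is not settled for any table. For the HCD-fed tables they name the RD-dam group the control, but with the control written first, which leaves the direction open. For the RD-fed tables only the groups' order in the labels gives the reading. If the reading is wrong for a table, every sign of that table turns. Only RD-fed tables were turned in the checks below. Calls were made at an adjusted p under 0.05. In bulk tissue, fewer cells of a type and less RNA per cell cannot be told apart. The sex labels fitted the tables, since Xist had mean normalized counts of 3893 and 5611 in the 2 female tables and 3.33 and 0.447 in the 2 male tables of the authors' deposited set. The mean normalized counts summed to between 15402649 and 26951335 per table.

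The receptor substrate gene Irs4 was the one member whose call passed the threshold, and it did so in 2 comparisons. In the authors' deposited table of HCD-fed males, Irs4 was lower in offspring of HCD dams on the above reading of the signs. The authors' log2 fold change was -1.32 ± 0.31 (± SE, a 2.49-fold difference, adjusted p = 0.0185). The authors' deposited table of RD-fed females gave -1.13 ± 0.29 (2.19-fold; adjusted p = 0.0344). With the authors' statistics scaled by their robust spread over all genes, the call was lost in HCD-fed males (adjusted p = 0.232) and held in RD-fed females (adjusted p = 0.0172). With the trend of all genes with transcript length removed from the authors' fold changes, both calls were lost (adjusted p = 0.267 in HCD-fed males and 0.0598 in RD-fed females). In the 2 other deposited tables of the authors Irs4 did not pass, at -0.93 ± 0.43 in HCD-fed females (p = 0.0306 unadjusted, adjusted p = 0.302) and -0.36 ± 0.38 in RD-fed males (adjusted p = 1.00). Thus 1 of 10 members was called in HCD-fed males, where 0.163% of 15384 tested genes were, and it was also the one member with an unadjusted p under 0.05, against 8.14% of all genes. None of 10 was called in HCD-fed females, where 1.52% of 15043 genes were, and 2 of 10 had an unadjusted p under 0.05, against 13.3% of all genes. None of 10 was called in RD-fed males, where 0.0851% of 12920 genes were, and none had an unadjusted p under 0.05, against 4.3% of all genes. In RD-fed females 1 of the 9 members with a p was called, against 0.346% of 15028 genes (6.16% at an unadjusted p under 0.05), and Insr carried no p in that authors' table. The members were chosen with earlier results of these data known, so these counts describe the set and are no test of it.

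**Figure D1:**
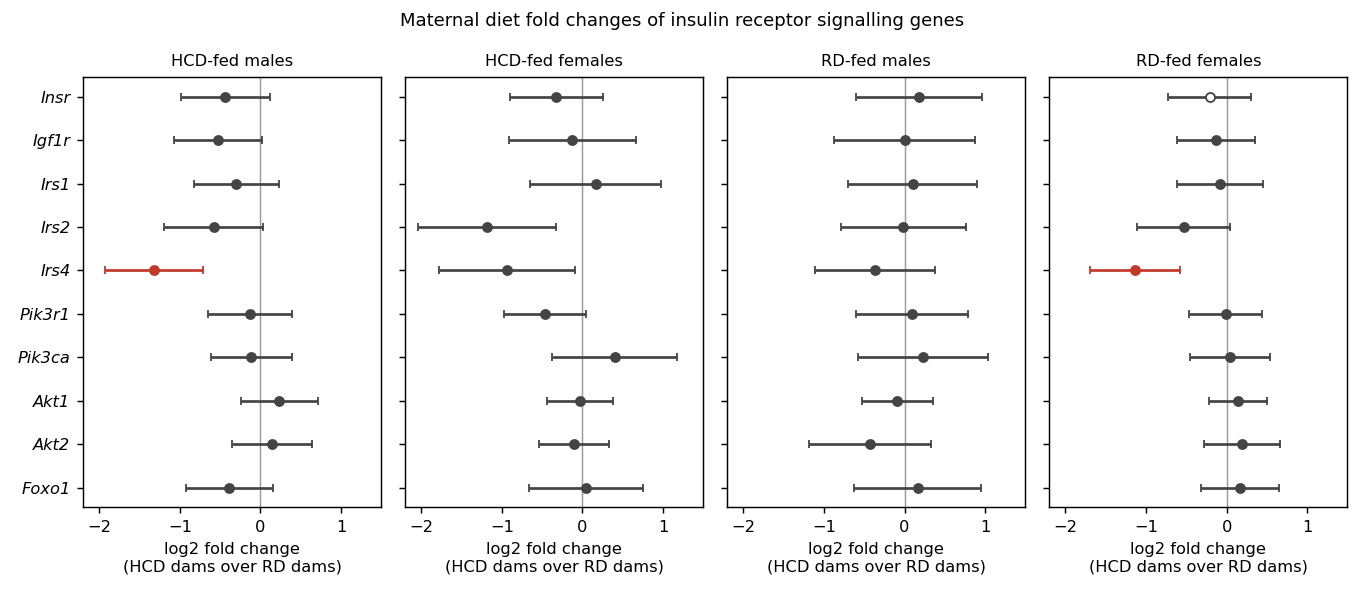
Log2 fold change of maternal diet (HCD dams over RD dams, x axis) for the 10 genes (rows) in the authors' 4 tables (panels). Bars are 95% intervals made from the authors' SE, red marks an adjusted p under 0.05, and the open circle marks the gene with no p; the Irs4 points lie left of 0 in all 4 panels, at -1.32 and -1.13 in the 2 red ones.

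The Irs4 difference stood near the low end of all genes in 3 tables. Only 10 of the genes tested in HCD-fed males had a lower log2 fold change, and 19 in RD-fed females, 333 in HCD-fed females and 1882 in RD-fed males. Of 12604 genes with an adjusted p in all 4 tables, 268 were called in at least 1 of them. Of these genes, 2 (0.0159%) were called lower in more than 1 table, Irs4 and Nnat, an imprinted gene expressed in brain that is named here after its values were seen. Another 4 (0.0317%) were called higher in more than 1 table, Erdr1, Gstp1, Mif and Rps29, also named after their values were seen. The authors' deposited tables gave Nnat as -0.90 ± 0.22 in RD-fed males (adjusted p = 0.0495) and -1.19 ± 0.24 in RD-fed females (adjusted p = 0.00113), and as -0.66 ± 0.23 in HCD-fed females and -0.12 ± 0.26 in HCD-fed males, neither called. Irs4 and Nnat therefore shared a call in RD-fed females, and each had its second call in a different group of males. A negative sign in all 4 tables was common by itself, in 1495 genes (11.9%), and it depends on the reading of the signs above. With the signs of both RD-fed tables turned, a check added after the data were seen, Irs4 would be called lower in 1 table and higher in another, and would be the 1 gene called in both directions. No gene would then be called lower in more than 1 table, and 5 would be called higher, Nnat among them.

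The size of the Irs4 difference was compared between offspring diets and between sexes, using the authors' fold changes and SEs, with p-values adjusted over all genes of each difference. From the authors' fold changes, HCD-fed minus RD-fed males gave -0.95 ± 0.49 on the log2 scale, with a 95% interval of -1.91 to 0.01 (p = 0.0521, adjusted p = 0.978), and -1.68 (adjusted p = 0.184) with the sign of the RD-fed table turned. The authors' fold changes for HCD-fed minus RD-fed females gave 0.20 ± 0.52 (interval -0.82 to 1.21; adjusted p = 1.00). With the sign of the authors' RD-fed female table turned, this difference would be -2.06 and pass (adjusted p = 0.0149), so its result rests on the reading of the signs. Males minus females, again from the authors' fold changes, gave -0.38 ± 0.53 among HCD-fed mice (interval -1.43 to 0.66; adjusted p = 1.00) and 0.77 ± 0.47 among RD-fed mice (interval -0.16 to 1.70; p = 0.106, adjusted p = 1.00). A call in HCD-fed males and none in RD-fed males is thus not shown to be a difference between them. On the above reading, the interval between the sexes on the HCD is wide enough to hold no difference or one of -1.43. The differences between the sexes were not remade with a sign turned. Their size would change if the reading were wrong for only 1 of the tables compared, so they also rest on it.

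Irs2, a broadly expressed substrate that carries much of the insulin signal in liver and brain, lay below 0 beside Irs4 but was never called. The authors' deposited table of HCD-fed females held its largest value, -1.19 ± 0.44 (2.28-fold; p = 0.00641, adjusted p = 0.145), where 97 genes had a lower log2 fold change. It stood at -0.58 ± 0.31 in HCD-fed males (adjusted p = 0.644), -0.53 ± 0.29 in RD-fed females (adjusted p = 0.888) and -0.01 ± 0.39 in RD-fed males (adjusted p = 1.00), per the authors' deposited tables. In HCD-fed females Irs2 was thus further from 0 than Irs4, and in the other 3 tables Irs4 was. Irs1, the first substrate described and the main one in muscle, had no common sign in the authors' deposited tables. The authors' log2 fold changes of Irs1 were -0.30 ± 0.27 in HCD-fed males, 0.17 ± 0.42 in HCD-fed females, 0.10 ± 0.41 in RD-fed males and -0.08 ± 0.27 in RD-fed females, none called. On the above reading of the signs, the same comparison of effect sizes made for Irs4 passed for neither Irs2 nor Irs1, whose 8 differences had adjusted p-values of 0.978 to 1.00. Their intervals were wide: that for Irs2 in HCD-fed minus RD-fed females ran from -1.69 to 0.37. With the sign of the authors' RD-fed female table turned, that difference of Irs2 would be -1.72 (p = 0.00108, adjusted p = 0.0601).

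The 3 substrate genes lie on 3 chromosomes in GRCm38, Irs4 at chrX:141710998-141725263, Irs2 at chr8:10984681-11008458 and Irs1 at chr1:82233101-82291416, all on the minus strand and all protein coding. Their promoters are shown because those of Irs4 and Irs2 share a stretch of bases, chosen after the sequences had been read. Whether that stretch bears on their fold changes was not tested. RefSeq promoter sequences (GRCm38.p6, from 250 bases before to 50 bases after each start, 300 in all) were matched for 9 of the 10 members, all but Insr. The 54-base windows below are given 5′ to 3′ on the minus strand, with the E box CACGTG and the heptamer TGTTTTG in capitals; all 3 lie upstream of the annotated gene. TGTTTTG is a core form of the insulin response element, a sequence that FOXO proteins bind in the promoters of liver genes.
Irs4, chrX:141725338-141725391: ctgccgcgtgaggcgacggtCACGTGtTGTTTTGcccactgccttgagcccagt
Irs2, chr8:11008940-11008993: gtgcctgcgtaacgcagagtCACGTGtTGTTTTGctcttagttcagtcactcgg
Irs1, chr1:82291521-82291574: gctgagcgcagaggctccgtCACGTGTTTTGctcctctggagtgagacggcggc

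In Irs4 and Irs2 the E box and the heptamer are 1 base apart, and in Irs1 they overlap by 2 bases. The E box begins 154 bases before the start in Irs4, 44 in Irs2 and 115 in Irs1. It occurs in these 3 of the 9 matched members and, reading both strands, in 2187 of 27025 genes. By promoter, that is 7.15% of the 32851 RefSeq promoters of that length, of which the matched members hold 14. The heptamer occurs in the same 3 members and in 1946 of the 27025 genes, or 6.28% of the promoters, and 0.408% of the promoters hold both anywhere. The run CACGTGTTGTTTTG, shared by Irs4 and Irs2, is found in 2 promoters of the 32851, those of Irs4 and Irs2. The form in Irs1, CACGTGTTTTG, is found in 7. The heptamer and both runs were chosen after the sequences had been read, so their shares only describe them. The match describes these letters, and says nothing of what binds there in these mice. Another FOXO motif, TGTTTAC, occurs in 3.65% of the promoters and, among the members, in a promoter of Akt1.

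The receptors passed no test. Insr encodes the insulin receptor and Igf1r the IGF1 receptor, which can pair into hybrids. In the authors' deposited tables Insr stood at -0.43 ± 0.28 in HCD-fed males (adjusted p = 0.692), -0.33 ± 0.29 in HCD-fed females (adjusted p = 0.758), 0.18 ± 0.40 in RD-fed males (adjusted p = 1.00) and -0.21 ± 0.26 in RD-fed females, where it has no p. Igf1r stood at -0.53 ± 0.28 in HCD-fed males (adjusted p = 0.621), -0.12 ± 0.40 in HCD-fed females, 0.00 ± 0.45 in RD-fed males and -0.14 ± 0.25 in RD-fed females of the authors' deposited tables. The values furthest from 0 were thus those of HCD-fed males for both receptors. The 95% intervals there were -0.98 to 0.11 for Insr and -1.07 to 0.02 for Igf1r, so both 0 and values near -1 lay within or close to them.

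Behind the receptors, no subunit, kinase or transcription factor was called. Pik3r1 encodes the regulatory subunit p85 alpha, which docks PI3K on the substrates. Its lowest value was -0.46 ± 0.26 in the authors' deposited table of HCD-fed females (adjusted p = 0.435), and the other 3 tables gave -0.13 to 0.09. Pik3ca, the catalytic subunit p110 alpha, lay between -0.11 and 0.40 in the authors' deposited tables, the highest again in HCD-fed females and there opposite in sign to its partner. Akt1 stayed between -0.09 and 0.24 in the authors' deposited tables, with an SE of at most 0.24. Akt2, the AKT form most tied to glucose uptake in fat and muscle, ranged from -0.43 ± 0.39 in RD-fed males to 0.19 ± 0.24 in RD-fed females in the authors' deposited tables. Foxo1 was at -0.38 ± 0.28 in HCD-fed males (adjusted p = 0.731) and at 0.05 to 0.17 in the other tables the authors deposited. Akt1 had the narrowest interval among the members in HCD-fed females, -0.44 to 0.38. On the above reading of the signs, no tested member was called in any of the 4 differences between effects. For these, 10, 9, 10 and 9 members could be tested, since Insr has no p in RD-fed females. In these differences 1 of 12910 genes (0.00775%), 1 of 14603 (0.00685%), 0 of 14947 (0%) and 1 of 12636 (0.00791%) were called. In the same order, 3.84%, 5.0%, 0.642% and 3.05% of genes had an unadjusted p under 0.05, and no tested member did. Where the share is below 5.0%, fewer genes passed than the nominal level, so the lack of a pass among few members says little. The order is HCD-fed minus RD-fed males, HCD-fed minus RD-fed females, males minus females on the HCD, and males minus females on the RD; for the third, 96 genes had an unadjusted p under 0.05.

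Across the members, the median log2 fold change was -0.34 in HCD-fed males, where 8 of 10 were negative, against -0.01 for all tested genes, of which 51.1% were negative. HCD-fed females had a median of -0.11 with 7 of 10 negative, against 0.04 and 45.6%. RD-fed males had 0.04 with 4 of 10 negative, against 0.00 and 49.98%, and RD-fed females -0.01 with 5 of 9 negative, against 0.01 and 49.1%. The members have long transcripts, and transcript length moved with the fold changes. Of the 10, only Akt1 (2690 bases) was shorter than the median tested gene (3097 bases), and Irs4 (6294 bases) was longer than 88.1% of them. Across genes, which are not independent replicates, the Spearman correlation of the authors' Wald statistic with transcript length was -0.567 in HCD-fed males, -0.463 in HCD-fed females, 0.0938 in RD-fed males and -0.221 in RD-fed females. Measured from the trend of all genes with length in the authors' tables, Irs4 was at -1.06 in HCD-fed males (adjusted p = 0.267), -0.71 in HCD-fed females, -0.38 in RD-fed males and -1.05 in RD-fed females (adjusted p = 0.0598). Both calls were thus lost, while most of the fold change remained. In HCD-fed males Insr then stood at -0.04, Igf1r at -0.07 and Foxo1 at -0.02.

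The levels of the 10 genes were ordered per transcript length, as the mean normalized count over both groups of a table, scaled to a table sum of 1000000 (CPM) and divided by the transcript's length in kilobases. Akt1 was by far the most abundant, at 78.4 to 84.2 CPM per kilobase in the authors' 4 deposited tables. Akt2 (13.9 to 18.1) and Pik3r1 (11.2 to 14.7) followed with overlapping ranges, then Pik3ca (4.70 to 6.78). Foxo1 (3.12 to 3.59), Insr (2.73 to 3.31), Igf1r (2.64 to 4.18) and Irs2 (1.93 to 4.29) overlapped in the authors' tables and cannot be ordered beyond the spread between tables. Irs4 (1.28 to 1.77) and Irs1 (1.08 to 1.57) were lowest and overlapped each other in the tables the authors deposited. The most variable member between tables was Irs2, at 12.2 to 27.1 CPM, a 2.23-fold range, and Akt1 the least, with a 1.07-fold range. The tables were normalized separately, so a level set across them is a description. In mean normalized counts, Irs4 had 301 in HCD-fed males, 190 in HCD-fed females, 130 in RD-fed males and 189 in RD-fed females in the authors' deposited tables, well above the mean of 10 below which the authors gave no adjusted p.

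**Figure D2:**
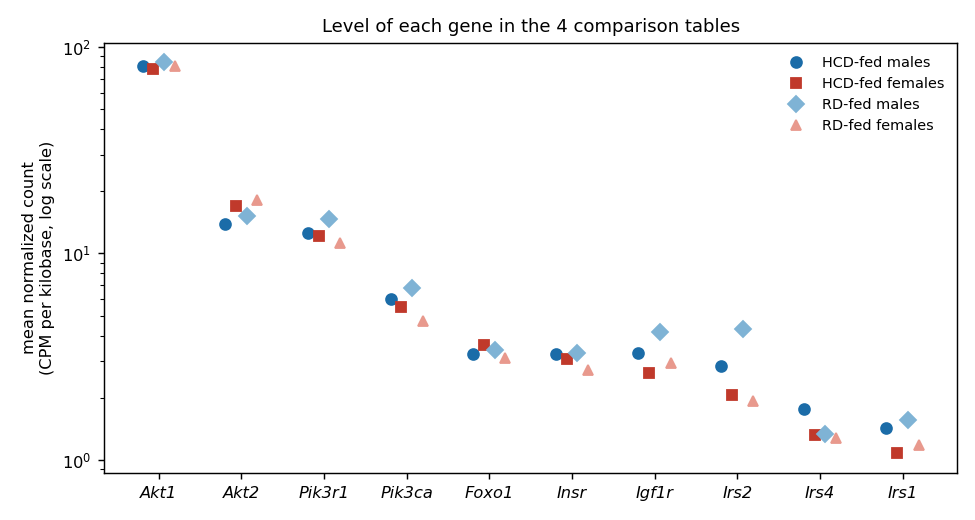
Mean normalized count as CPM per kilobase of transcript (y axis, log scale) for each gene (x axis, by falling median level), with 1 point per authors' table. Akt1 stands near 81.0 and the substrates Irs4 and Irs1 between 1.08 and 1.77; the points are means over both groups, so they show no effect of maternal diet.

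The genes whose 4 fold changes were most like those of Irs4, by Euclidean distance over the 4 tables among the 12604 genes, were 4930480K23Rik (0.557), Trh (0.665), Tshz2 (0.673), Srrm2 (0.683) and Kmt2a (0.703). Trh encodes thyrotropin-releasing hormone, a neuropeptide of the paraventricular nucleus. The authors' deposited tables gave Trh as -1.17 ± 0.31 in HCD-fed males (adjusted p = 0.0791), -0.84 ± 0.40 in HCD-fed females, -0.11 ± 0.41 in RD-fed males and -0.54 ± 0.26 in RD-fed females, none called. 4930480K23Rik was called in HCD-fed males of the authors' deposited tables (-1.52 ± 0.30, adjusted p = 0.00152). Srrm2, a splicing factor gene (-0.94 ± 0.27, adjusted p = 0.0408), and Kmt2a, a histone methyltransferase gene (-1.16 ± 0.29, adjusted p = 0.0133), were called in HCD-fed females of the authors' deposited tables. Tshz2, a zinc finger gene, was called nowhere.

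Markers of hypothalamic neurons lay below 0 with Irs4 in the 2 comparisons where it was called. This list was chosen with earlier results of these data known, so its counts only describe it and are no separate evidence. Of 18 transcription factor genes that mark hypothalamic nuclei, 14 were tested in HCD-fed males, all 14 were negative, and their median was -0.74, against -0.01 for all genes. The authors' deposited table of HCD-fed males called 2 of them, Fezf1 (-1.55 ± 0.32, adjusted p = 0.00242), a marker of the ventromedial nucleus, and Sim1 (-1.37 ± 0.32, adjusted p = 0.0185), a marker of the paraventricular nucleus. At an unadjusted p under 0.05 there were 10 of 14, against 8.14% of all genes, of which 0.163% were called. In RD-fed females all 13 tested were negative, with a median of -0.31 and none called, and 3 of 13 had an unadjusted p under 0.05, against 6.16% of all genes. The largest statistic there was that of Dlx1, at -0.69 ± 0.24 in the table the authors deposited. In HCD-fed females 6 of 11 were negative with a median of -0.11, and in RD-fed males 5 of 9 with the same median of -0.11. None was called in either, where 1.52% and 0.0851% of all genes were. At an unadjusted p under 0.05 there were 0 of 11 and 1 of 9, against 13.3% and 4.3% of all genes. The largest statistics were those of Lhx1 in HCD-fed females (-0.78 ± 0.42) and Six3 in RD-fed males (0.94 ± 0.36) of the authors' deposited tables. Irs4 was lower than the list's median by 0.58 in HCD-fed males (difference -0.58), and the differences were -0.83, -0.26 and -0.82 in HCD-fed females, RD-fed males and RD-fed females. Of the tested markers, 2 were below Irs4 in HCD-fed males, none in HCD-fed females, 2 in RD-fed males and none in RD-fed females. The tested set changed between comparisons and the authors' fold changes appear shrunken toward 0, so these distances only describe. None of the 18 was at 0 in any table, and their summed mean was 79.2 to 95.2 CPM. However, 4 to 7 of them had a mean under 10 and were not tested. Six6, Rax, Hmx2 and Hmx3 were under 10 in every table, and Nr5a1 in all but HCD-fed males. Sim1 and Fezf1 were under 10 in HCD-fed females and RD-fed males. The list was thus detected as a whole, but its sum does not show how much of the tissue was hypothalamus. What part these markers have in the Irs4 result was not tested.

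Markers of neighbouring regions also stood away from 0. Of all tested genes, 0.163%, 1.52%, 0.0851% and 0.346% were called in HCD-fed males, HCD-fed females, RD-fed males and RD-fed females. In RD-fed females all 10 thalamus markers were negative (median -0.70), 2 of them called in the authors' deposited table, Calb2 at -1.32 ± 0.28 (adjusted p = 0.00473) and Gbx2 at -1.11 ± 0.29 (adjusted p = 0.0474). In the same table the 9 tested markers of cortex and hippocampus had a median of 0.93 and the 10 of striatum a median of 0.40, none called. At an unadjusted p under 0.05 there were 6 of 10 thalamus markers, 6 of 9 of cortex and hippocampus and 2 of 10 of striatum, against 6.16% of all genes. The cortical Emx1 stood at 1.06 ± 0.30 (adjusted p = 0.0756) and the striatal Adora2a at 0.62 ± 0.29 (adjusted p = 0.725) in that table of the authors. In HCD-fed males all 10 striatum markers were negative (median -0.65, none called) and 7 of 10 had an unadjusted p under 0.05, against 8.14% of all genes, while the thalamus (0.10) and cortex and hippocampus (-0.03) medians were near 0, each with 1 of 10 at an unadjusted p under 0.05. The dopamine receptor gene Drd1, a striatum marker, stood at -0.97 ± 0.32 in HCD-fed males (adjusted p = 0.318 in the table the authors deposited). RD-fed males had positive signs in all 10 thalamus markers (median 0.53, none called), led by Prkcd at 1.41 ± 0.43 (adjusted p = 0.223 in the table the authors deposited). Of these markers 2 of 10 had an unadjusted p under 0.05, against 4.3% of all genes. In HCD-fed females the 3 regional medians were 0.00 to 0.20, and Rtn4r, on the cortex and hippocampus list, was the one called gene (0.89 ± 0.26, adjusted p = 0.0498 in the table the authors deposited). The summed levels over the 4 tables, in CPM, were 781 to 1305 for thalamus, 429 to 745 for cortex and hippocampus and 1202 to 2190 for striatum, so all 3 were well detected. What part these shifts have in the Irs4 result was not tested.

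Markers of other cell types also stood away from 0 in places, and none had a mean under 10 in any table. Of all tested genes, 0.163%, 1.52%, 0.0851% and 0.346% were called in HCD-fed males, HCD-fed females, RD-fed males and RD-fed females. At an unadjusted p under 0.05 the shares of all genes were 8.14%, 13.3%, 4.3% and 6.16% in that order. In RD-fed females, 6 of 8 choroid plexus markers were positive (median 0.65, 5 with an unadjusted p under 0.05). The authors' deposited table of RD-fed females called 2 of them, Kl (1.01 ± 0.23, adjusted p = 0.00867) and Kcnj13 (0.84 ± 0.22, adjusted p = 0.0479). The choroid plexus medians were 0.03 in HCD-fed males (3 of 8 with an unadjusted p under 0.05), -0.19 in HCD-fed females and 0.10 in RD-fed males, with none called. The choroid plexus list summed to between 4052 and 5234 CPM per table. In RD-fed females all 10 microglia markers were positive (median 0.33, 2 with an unadjusted p under 0.05), and no microglia marker was called in any table. Their medians were 0.01, 0.34 and -0.11 in HCD-fed males, HCD-fed females and RD-fed males. Astrocyte medians were -0.15, -0.31, -0.22 and -0.18 in HCD-fed males, HCD-fed females, RD-fed males and RD-fed females. The authors' deposited tables called the water channel gene Aqp4 in HCD-fed females (-1.25 ± 0.33, adjusted p = 0.0229) and Agt, the angiotensinogen gene, in RD-fed females (-0.79 ± 0.21, adjusted p = 0.0460). Oligodendrocyte medians were 0.27, -0.12, -0.12 and 0.23 in that order, and Olig1 was called in HCD-fed females of the authors' deposited tables (0.58 ± 0.16, adjusted p = 0.0365). Endothelial medians were -0.21, -0.10, 0.14 and 0.04, with none called and 3 of 8 at an unadjusted p under 0.05 in HCD-fed males. The part of these cell types in the Irs4 result was not tested.

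**Figure D3:**
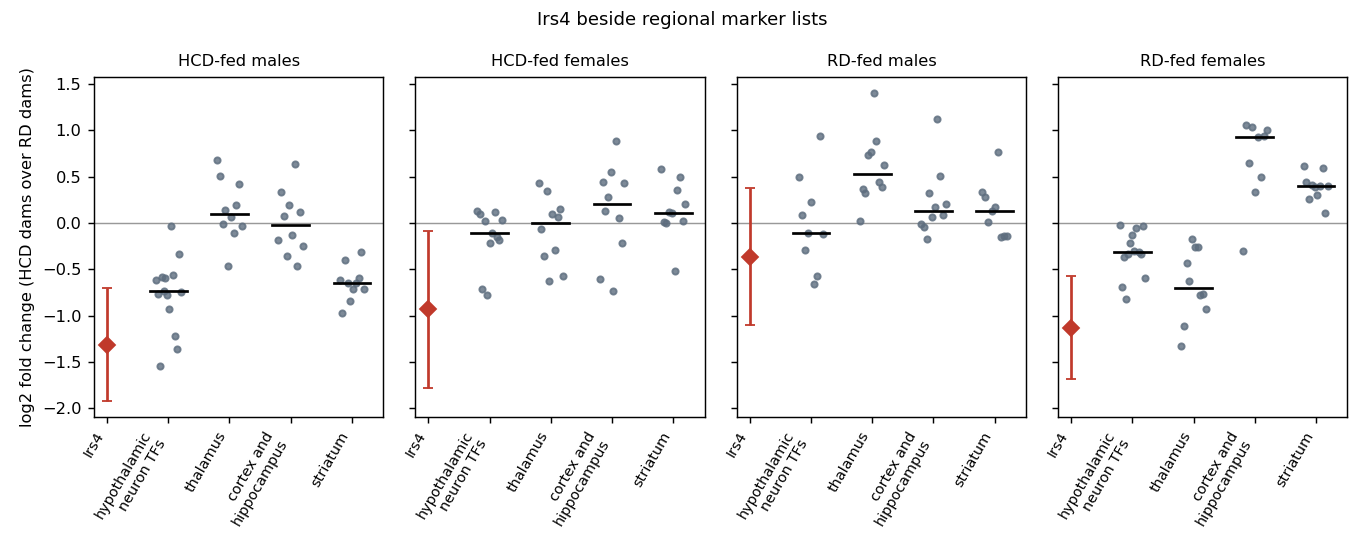
Log2 fold change (HCD dams over RD dams, y axis) of Irs4 (red diamond with its 95% interval) beside the tested genes of 4 regional marker lists (points, with the median as a black line) in the authors' 4 tables. The hypothalamic transcription factors (TFs) lie below 0 together with Irs4 in HCD-fed males (median -0.74) and RD-fed females (-0.31). Irs4 is below every tested one in both panels of females. Sim1 and Fezf1, which lie below Irs4 in HCD-fed males, were not tested in HCD-fed females.

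The wider pathway was read from 5 lists by role. Among ligands and IGF-binding proteins, 9, 9, 8 and 8 of 12 genes were tested in HCD-fed males, HCD-fed females, RD-fed males and RD-fed females, with medians of -0.02, 0.25, -0.15 and 0.32. Of these, only Igfbp5, a secreted protein that binds IGFs, was called, in the authors' deposited table of HCD-fed females (-1.02 ± 0.24, adjusted p = 0.00739). In HCD-fed females 1.52% of all genes were called. The authors' other deposited tables gave Igfbp5 as -0.48 ± 0.26, -0.22 ± 0.40 and -0.41 ± 0.24 in HCD-fed males, RD-fed males and RD-fed females, so its sign was negative in all 4. Igfbp4, another IGF-binding protein, was positive in all 4, with 0.99 ± 0.36 in HCD-fed females (adjusted p = 0.145) and 0.91 ± 0.28 in RD-fed females (adjusted p = 0.133) of the authors' deposited tables. The growth factor Igf2 was at -0.71 ± 0.25 in the authors' deposited table of HCD-fed males (adjusted p = 0.372), and Igf1 at -0.60 ± 0.38 in RD-fed males (adjusted p = 1.00).

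No gene of the other 4 lists was called in any comparison. Of all tested genes, 0.163%, 1.52%, 0.0851% and 0.346% were called in HCD-fed males, HCD-fed females, RD-fed males and RD-fed females. At these shares, lists of this size would hold few calls. Negative signs were held by 51.1%, 45.6%, 49.98% and 49.1% of all tested genes. Other receptors and adaptors were tested in 20, 19, 17 and 19 genes in the same order of comparisons, with 16, 12, 10 and 12 negative and medians of -0.15, -0.20, -0.15 and -0.08. The exchange factor Sos1, which links receptors to RAS, had the largest Wald statistic of that list in both HCD-fed tables, at -0.45 ± 0.27 in males and -0.59 ± 0.30 in females of the authors' deposited tables. The adaptor genes Grb2 (-0.47 ± 0.25) and Gab2 (-0.55 ± 0.27) had it in RD-fed males and RD-fed females of the authors' tables. Other parts of PI3K, AKT and mTOR signalling were negative in 22 of 29, 19 of 29, 12 of 27 and 14 of 28 genes, with medians of -0.19, -0.17, 0.07 and 0.00. Among them Pik3c2b, a class II PI3K, stood at -0.76 ± 0.28 in the authors' deposited table of HCD-fed males (adjusted p = 0.456), and Foxo4, a relative of Foxo1, at -0.86 ± 0.33 in that of HCD-fed females (adjusted p = 0.167). The kinase genes Gsk3a (-0.37 ± 0.21) and Mtor (-0.35 ± 0.21) led this list in RD-fed males and RD-fed females of the authors' tables. Negative regulators were negative in 13 of 19, 12 of 19, 5 of 17 and 11 of 19 genes, with medians of -0.13, -0.13, 0.09 and -0.02. Ide, the insulin-degrading enzyme, had the largest statistic among them in RD-fed males, at -0.63 ± 0.22 in the authors' deposited table (adjusted p = 0.459). The AKT phosphatase gene Phlpp2 had it in HCD-fed males (-0.55 ± 0.26) and RD-fed females (-0.49 ± 0.27), and its relative Phlpp1 in HCD-fed females (-0.62 ± 0.27), per the authors' tables. FOXO target genes had medians of -0.19, 0.21, 0.06 and -0.01 over 12, 11, 10 and 11 tested genes. The ubiquitin ligase gene Fbxo32, a FOXO target of wasting muscle, came nearest to a call, at -0.93 ± 0.28 in the authors' deposited table of HCD-fed females (adjusted p = 0.0601) and -0.46 ± 0.26 in that of HCD-fed males (adjusted p = 0.645). Ccng2 (0.45 ± 0.38) and Bcl6 (0.45 ± 0.23) had the largest statistics of the FOXO targets in RD-fed males and RD-fed females of the authors' tables.

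**Figure D4:**
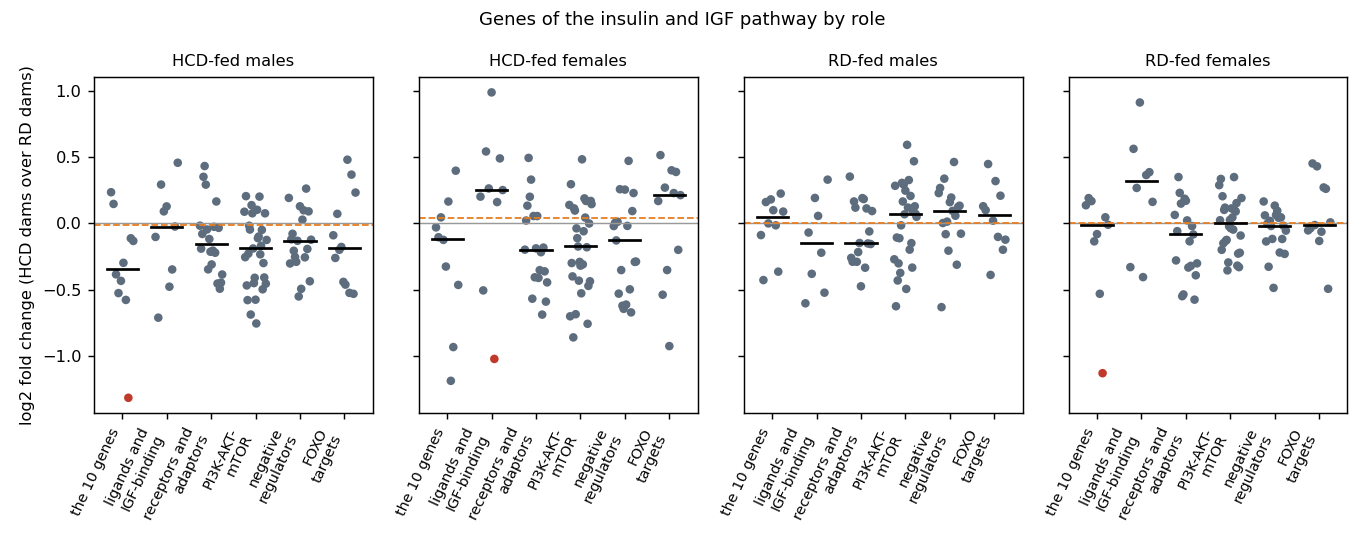
Log2 fold change (HCD dams over RD dams, y axis) of the tested genes of each role in the insulin and IGF pathway (x axis) in the authors' 4 tables; each point is 1 gene, red an adjusted p under 0.05, the black line the list's median and the dashed line the median of all tested genes. The red points are Irs4 at -1.32 and -1.13 and Igfbp5 at -1.02.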

How the data were processed

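Per the submitters' processing notes, the tool was DESeq (version not stated) and the build mm10; for the aligner, the counter and the annotation the entry is not given in the sources used here. The 4 comparison tables were used out of 12 deposited files. They hold, per the file headers, a mean normalized count (a signal of 0 or above), a log2 fold change with its SE, a Wald statistic (a score of either sign), a p-value and an adjusted p-value, all as the authors deposited them. The authors' fold changes appear shrunken toward 0, so intervals are approximate. The other 8 files hold 48 library columns whose names match no label, and they were not used. The planned count test was replaced by the authors' DESeq Wald test. For RD-fed males each such file has 6 library columns, against 7 labelled samples. The depth of single samples is thus unknown here. Genes with a mean under 10, and 1554 and 342 further genes of the RD-fed male and female tables, have no adjusted p.

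Differences between effects were divided by the root of the summed squared SEs and referred to the normal distribution, two-sided, with Benjamini-Hochberg adjustment (scipy 1.17.1, statsmodels 0.14.6, Python 3.11.15). This step was run on simulated data, whose noise was drawn from the authors' SEs without shrinkage. It therefore does not show how the step behaves on the authors' fold changes. Levels used each gene's longest transcript, protein coding where there was one, in GENCODE M21 (GRCm38), matched by symbol for 23376 of 24421 genes. The length trend was a lowess fit with a fraction of 0.3. The members and lists were chosen with earlier results of these data known. The naming rule took, from each list, called genes and the one with the largest Wald statistic in each comparison. The text gives these in full for the pathway lists; of the marker lists it gives the called genes and part of the others. Nnat, Erdr1, Gstp1, Mif and Rps29, Igfbp5 outside its called table and Igfbp4 in HCD-fed females lie outside that rule and were chosen after their values were seen.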

Additional observations from a re-analysis of the deposited data

How the results depend on the processing

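The number of called members stayed the same with a threshold of 0.10, with no filter on low counts, with a mean of at least 100 and with centring on the median. It fell to 0 in HCD-fed males with the statistic divided by its robust spread (Irs4 adjusted p = 0.232 from the authors' statistics) and with the transcript length trend removed, where 14 genes were called in all. It also fell to 0 in RD-fed females with that trend removed. Over these settings the adjusted p of Irs4 ran from 0.0185 to 0.267 in HCD-fed males and from 0.0172 to 0.0598 in RD-fed females. Removing the trend also turned the sign of members that were never called: Irs1 (0.088), Pik3r1 (0.17) and Pik3ca (0.27) in HCD-fed males, Insr (0.014), Igf1r (0.27) and Akt2 (0.00021) in HCD-fed females, and Igf1r (0.056), Irs1 (0.070) and Pik3r1 (0.096) in RD-fed females. Centring turned Igf1r in RD-fed males (-3.28e-05). Among differences, removing the trend turned Pik3r1 (0.10) and Pik3ca (0.051) in HCD-fed minus RD-fed males, Foxo1 (0.054) in the same difference of females, and Igf1r (-0.047) and Pik3r1 (-0.027) in RD-fed males minus females, while centring turned Igf1r (-0.023) in the females. Turning the sign of the RD-fed table reversed Pik3ca (0.11) and Akt2 (-0.28) in males, and Igf1r (-0.26), Irs4 (-2.06), Akt1 (0.11), Akt2 (0.087) and Foxo1 (0.21) in females, where 1 member, Irs4, was then called, with 186 genes in all. With both RD-fed tables turned, chosen after the data were seen, 0 genes in place of 2 were called lower in more than 1 table, and 1 in place of 0 in both directions. The cause of these changes was not tested.

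Over all genes, robust scaling moved the count of calls to 3 from 25 in HCD-fed males, to 56 from 229 in HCD-fed females and to 74 from 11 in RD-fed males. A mean of at least 100 gave 16 in HCD-fed males, the length trend 52 in HCD-fed females, and a threshold of 0.10 gave 450 in HCD-fed females, 23 in RD-fed males and 90 in RD-fed females. Centring left 100 positive and 96 negative calls in HCD-fed females, in place of 148 and 81. No paired analysis was possible because no library column could be tied to a labelled sample; for the same reason other normalization, DESeq2 and leaving out replicates were not run.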
